A study of Homo sapiens with 6 samples.

Results

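The markers described here were 10 genes by which ovarian carcinoma cells are recognised or targeted, PAX8, WT1, SOX17, MECOM, ESR1, MUC16, MSLN, FOLR1, EPCAM and WFDC2. They were taken by symbol from the deposited table, which lists 19973 genes, and all 10 were found in it. RNA was sequenced from OVCAR3 cells, an established human ovarian adenocarcinoma line, that carried either a non-targeting hairpin (shNC, 3 libraries, genotype given as WT) or a hairpin against NUF2 (shNUF2, 3 libraries, genotype given as NUF2 knockdown). Both groups had been transfected with a hairpin plasmid and selected with puromycin to give stable lines, so the vector and the drug were shared by the controls. A single shNUF2 hairpin was used, and the labels do not say whether the libraries of a group came from separate cultures. The p-values below therefore measure the spread between these libraries, which may be technical. The question was how the lineage factors and surface antigens of these cells differed between the lines with and without NUF2 knockdown.

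PAX8, SOX17, WT1 and MECOM are transcription factors of the fallopian tube and Müllerian epithelium or of the carcinomas that resemble it, and ESR1 encodes the estrogen receptor alpha, a ligand-activated transcription factor. MUC16 encodes the mucin that carries the serum antigen CA125, and MSLN encodes mesothelin, a membrane-anchored protein that binds this mucin. FOLR1 encodes folate receptor alpha, EPCAM an epithelial adhesion molecule, and WFDC2 the secreted protein HE4, which is measured in serum beside CA125. In the Gene Ontology terms listed in the deposited table, 5 members had transcription factor activity (PAX8, WT1, SOX17, MECOM and ESR1) and 5 were placed at the plasma membrane (ESR1, MSLN, FOLR1, EPCAM and MUC16).

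Total counts ranged from 14115009 to 16995452 with shNC and from 13057534 to 15227460 with shNUF2. NUF2, the targeted kinetochore gene, was covered by 903, 1096 and 1092 reads in the shNC libraries and by 281, 290 and 384 in the shNUF2 libraries. It fell by 1.51 on the log2 scale (SE 0.08, edgeR's quasi-likelihood test, Benjamini-Hochberg adjusted p = 2.17e-15).

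Of the 10 markers, 7 had enough reads to be tested, and all 7 passed an adjusted p of 0.05 in edgeR's quasi-likelihood test. ESR1, PAX8 and EPCAM were higher with shNUF2, and MSLN, MUC16, MECOM and FOLR1 were lower. These counts of 3 higher and 4 lower stand beside 33.9% of the 12874 genes tested called higher and 33.8% called lower. WT1, WFDC2 and SOX17 had too few reads in both groups to be tested. The median log2 fold change of the 7 tested markers was -0.31 against -0.01 for all genes tested, and the median size of the change, without its sign, was 0.69 against 0.38. By the thresholds of the study's methods, an unadjusted p under 0.05 and a fold change over 1 when read on the log2 scale, ESR1 was the 1 marker called higher (9.41% of all genes) and 0 were called lower (4.16% of all genes). In each of the 7 tested markers the shNC and shNUF2 libraries did not overlap in CPM (read counts relative to the TMM-scaled library total), which was also so for 70.6% of all genes. An exact two-sided permutation test of a single marker with 3 libraries against 3 cannot go below p = 0.10, and each of these 7 stood at that value. In bulk RNA, fewer cells expressing a marker and less of its RNA per cell cannot be told apart.

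The members covered a wide range of levels, which are compared between genes only as FPKM, read counts divided by gene length and library total. FOLR1 had a mean level of 3499 FPKM (SD 156, n = 3) with shNC and was the gene of rank 5 among all genes listed. MSLN followed with a level of 153 FPKM (SD 5.54, n = 3), at rank 163, and MECOM with 12.7 FPKM (SD 0.487, n = 3). The median level of all genes tested was 5.98 FPKM with shNC, so FOLR1, MSLN and MECOM lay above it and the other members below it. EPCAM had a level of 1.41 FPKM (SD 0.306), PAX8 1.39 FPKM (SD 0.107), MUC16 1.12 FPKM (SD 0.0755) and ESR1 0.505 FPKM (SD 0.124) with shNC. In this order the libraries of EPCAM overlapped those of PAX8 and of MUC16, so that these neighbours did not differ beyond their spread, whereas PAX8 and MUC16 did not overlap. SOX17 lay at 0.0851 FPKM, WT1 at 0.00241 FPKM and WFDC2 at 0 FPKM. With shNUF2 the order was kept except that ESR1, at a level of 1.11 FPKM (SD 0.0756), stood above MUC16, at 0.651 FPKM (SD 0.0833), with no overlap between the libraries of these 2 genes. FOLR1 exceeded MSLN by 22.8-fold in mean FPKM with shNC and by 31-fold with shNUF2.

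**Figure D1:**
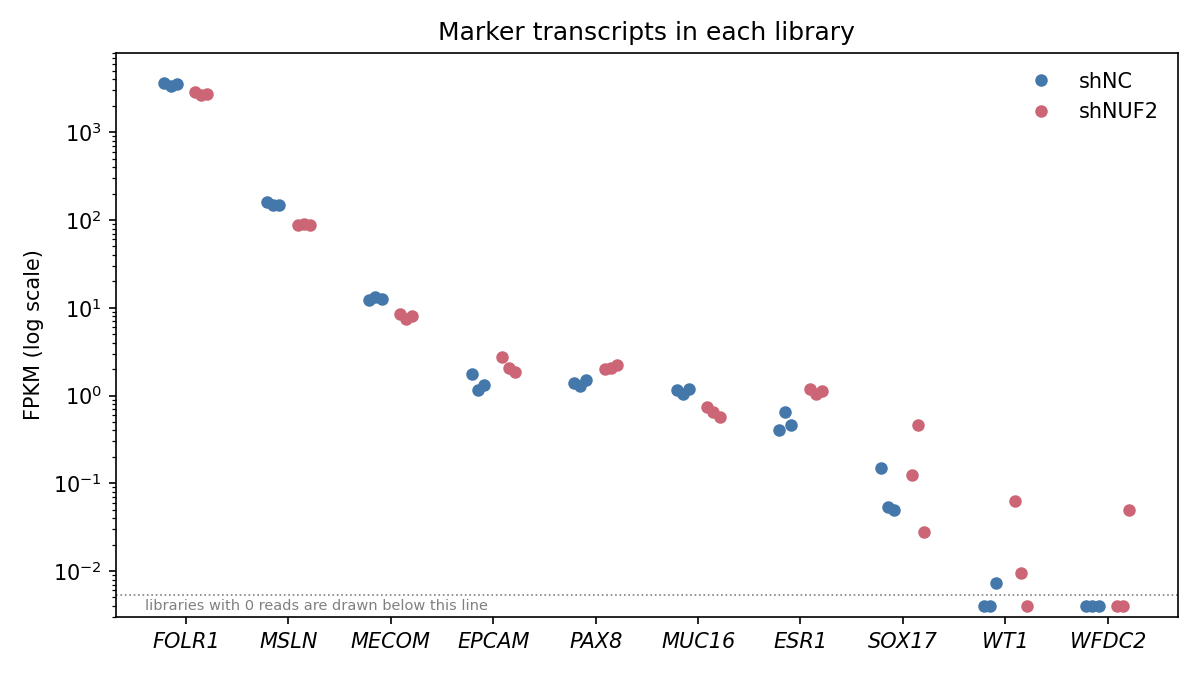
FPKM (log axis) of the 10 markers in the 3 shNC and 3 shNUF2 libraries, 1 point per library, with libraries at 0 reads drawn below the dotted line. FOLR1 lies at 2685 FPKM or more in every library, and WT1 and WFDC2 lie at or near 0 in both groups.

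The label of the cell line was set beside its defining markers. Of the simple epithelial keratins, KRT7 was abundant at a mean level of 169 FPKM, as were KRT8 at 49.5 FPKM and KRT18 at 35.3 FPKM with shNC. KRT19, also a simple epithelial keratin, was close to absent, at 0.113 FPKM with shNC and 0.214 FPKM with shNUF2. CDH1, which encodes E-cadherin, was close to absent at a level of 0.23 FPKM with shNC and 0.136 FPKM with shNUF2. ESRP1 and GRHL2, regulators of the epithelial state, had at most 2 and 4 reads in any library, and CLDN3, a claudin of ovarian carcinoma, had 0 reads in all 6. Other epithelial transcripts were present, with CD24 at 45.9 FPKM, CLDN7 at 19.0 FPKM and CLDN4 at 6.75 FPKM with shNC. Of the markers by which high-grade serous carcinoma is recognised, PAX8 and MUC16 were at low levels, MSLN and FOLR1 at high levels, and WT1 and WFDC2 were not detected beyond a few reads. The near absence of WT1, WFDC2 and CDH1 goes against the profile of a serous epithelial carcinoma, and the cells are called here by their label only. These absences were shared by the shNC and the shNUF2 libraries.

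**Figure D2:**
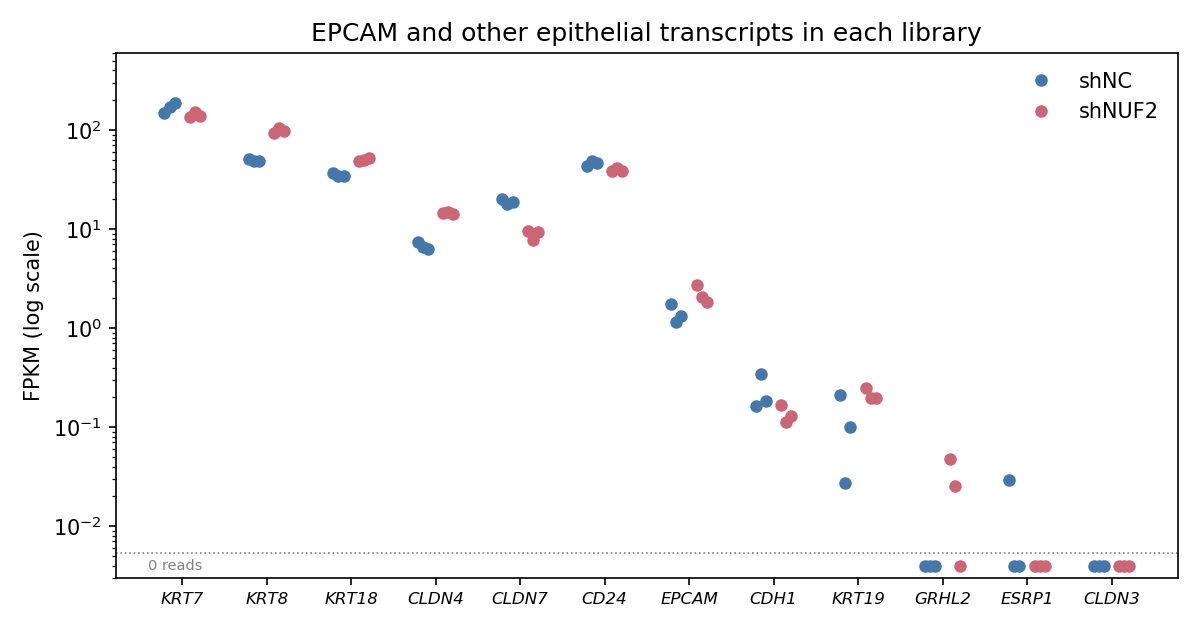
FPKM (log axis) of EPCAM and 11 other epithelial transcripts in each shNC and shNUF2 library, with libraries at 0 reads drawn below the dotted line. The keratins KRT7, KRT8 and KRT18 lie at 34.6 FPKM or more in every library, while CDH1 reaches at most 0.344 FPKM and CLDN3 has 0 reads.

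For the members whose change or absence the results turn on and whose RefSeq start lay within 63 bp of the deposited 5′ end of the gene, the promoter is shown as the 250 bases before and 50 bases after that start, read 5′ to 3′ on the strand of the gene (RefSeq, GRCh38.p14). PAX8 (minus strand, chr2:113278872-113279171) and ESR1 (plus strand, chr6:151656422-151656721) are members that rose, and MECOM (minus strand, chr3:169663663-169663962) is one that fell. WT1 (minus strand, chr11:32435490-32435789) and WFDC2 (plus strand, chr20:45469503-45469802) were at or near 0 reads. Capitals mark the letters of a GC box, GGGCGG on either strand.
PAX8: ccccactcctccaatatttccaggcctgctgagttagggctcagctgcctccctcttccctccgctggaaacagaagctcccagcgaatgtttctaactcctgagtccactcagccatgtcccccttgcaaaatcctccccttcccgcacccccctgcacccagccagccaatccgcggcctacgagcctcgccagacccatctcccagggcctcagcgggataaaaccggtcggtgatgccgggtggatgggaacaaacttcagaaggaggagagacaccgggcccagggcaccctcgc
ESR1: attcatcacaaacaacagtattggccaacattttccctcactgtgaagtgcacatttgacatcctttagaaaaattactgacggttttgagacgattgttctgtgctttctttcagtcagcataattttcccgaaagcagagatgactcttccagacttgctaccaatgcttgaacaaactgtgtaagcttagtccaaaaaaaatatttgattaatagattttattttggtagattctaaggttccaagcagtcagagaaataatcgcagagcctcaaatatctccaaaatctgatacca
MECOM: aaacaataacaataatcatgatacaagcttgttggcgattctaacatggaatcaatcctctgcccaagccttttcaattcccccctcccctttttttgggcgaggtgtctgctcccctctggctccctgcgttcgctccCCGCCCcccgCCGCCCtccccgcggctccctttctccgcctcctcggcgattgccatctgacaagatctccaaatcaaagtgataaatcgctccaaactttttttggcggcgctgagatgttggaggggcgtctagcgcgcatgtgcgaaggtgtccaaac
WT1: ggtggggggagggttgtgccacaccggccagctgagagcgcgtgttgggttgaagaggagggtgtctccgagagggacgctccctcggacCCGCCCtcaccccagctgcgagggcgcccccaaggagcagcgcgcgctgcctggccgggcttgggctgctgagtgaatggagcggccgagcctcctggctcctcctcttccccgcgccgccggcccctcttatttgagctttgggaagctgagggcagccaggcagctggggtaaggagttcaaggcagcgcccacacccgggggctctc
WFDC2: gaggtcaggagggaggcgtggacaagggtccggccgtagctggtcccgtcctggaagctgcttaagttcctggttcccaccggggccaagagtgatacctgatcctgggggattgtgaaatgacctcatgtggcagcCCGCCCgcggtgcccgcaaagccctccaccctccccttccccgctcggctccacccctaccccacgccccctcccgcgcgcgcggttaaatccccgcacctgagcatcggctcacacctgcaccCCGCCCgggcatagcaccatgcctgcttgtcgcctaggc
A GC box was found in the windows of MECOM (2), WT1 (1) and WFDC2 (2), and none in those of PAX8 and ESR1, while 45% of all 35116 promoters of this length in the table hold at least 1. The ESR1 window had 36.3% G and C and 4 CpG dinucleotides, and that of WFDC2 67.3% and 22, against medians of 58.7% and 14 over all promoters. TATAAA (11.5% of all promoters), TGANTCA, the AP-1 site (7.71%), and the full estrogen response element (arms GGTCA and TGACC, 3 bases apart, 0.057%) were searched on both strands and matched none of these 5 windows. The estrogen response element arm GGTCA occurred 2 times in the WFDC2 window and in 37.4% of all promoters. A match or its absence describes these letters only. The table held 1 start for PAX8 and WFDC2, 3 for MECOM, 4 for WT1 and 6 for ESR1, and the read counts pool all starts of a gene. The ESR1 windows differed by start. Those of the starts at 151807196 and 151807682, not shown, each held 1 GC box, and those of the remaining ESR1 starts held none. The window of the start at 151807682 had 58.3% G and C and 17 CpG dinucleotides.

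Among the lineage factors, PAX8, the paired-box factor used to assign carcinomas to the Müllerian tract, was covered by 143, 149 and 188 reads in the shNC libraries and by 203, 200 and 252 in the shNUF2 libraries. Its level was 10.1 ± 0.803 CPM with shNC and 15.7 ± 0.899 CPM with shNUF2 (SD, n = 3 each), and the lowest shNUF2 library was above the highest shNC library. PAX8 rose by a log2 fold change of 0.64 (SE 0.12, edgeR's quasi-likelihood test, adjusted p = 4.42e-05). The gene lies on chromosome 2 from 113215997 to 113278921 (GRCh38, minus strand) and overlaps the antisense transcript PAX8-AS1. The library kit keeps strand, but the strand setting of the counting is not given in the sources used here, so reads of PAX8 and of its antisense partner cannot be told apart with certainty.

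ESR1 showed the largest change of the 7 tested markers in edgeR's fit, though on log2(FPKM + 1) with limma ESR1 was at 0.49 and MSLN at -0.78. ESR1 was covered by 79, 139 and 108 reads in the shNC libraries and by 224, 185 and 234 in the shNUF2 libraries. The shNC libraries spread more, with replicate 2 the highest of them, yet all 3 stayed below the lowest shNUF2 library. The level rose from 6.84 ± 1.65 CPM to 15.5 ± 1.19 CPM (SD, n = 3 each), a log2 fold change of 1.17 (SE 0.15, edgeR's quasi-likelihood test, adjusted p = 1.08e-07). A test of whether the change exceeded 1 on the log2 scale (edgeR's TREAT) gave an adjusted p of 0.446, so ESR1 differed between the groups but was not shown to have passed that size. ESR1 (chromosome 6 from 151656691 to 152129619, GRCh38, plus strand) overlaps the 3′ part of SYNE1, a coding gene on the opposite strand, and 2 noncoding transcripts.

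MECOM, the zinc finger factor also called EVI1, lies in a chromosomal region often gained in serous carcinoma. It was covered by 1618, 1933 and 1974 reads in the shNC libraries and by 1076, 903 and 1129 in the shNUF2 libraries. The gene spans chromosome 3 from 169083499 to 169663775 (GRCh38, minus strand). All shNUF2 libraries lay below all shNC libraries, at 74.8 ± 5.18 CPM against 117 ± 3.88 CPM (SD, n = 3 each). MECOM fell by 0.64 on the log2 scale (SE 0.05, edgeR's quasi-likelihood test, adjusted p = 7.56e-11).

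SOX17, the endodermal and Müllerian factor, was covered by 5, 2 and 2 reads in the shNC libraries and by 4, 14 and 1 in the shNUF2 libraries. The groups overlapped, and the 14 reads of shNUF2 replicate 2 stood above all other libraries. WT1, the Wilms tumor factor, was covered by 0, 0 and 1 reads in the shNC libraries and by 7, 1 and 0 in the shNUF2 libraries. These reads were too few for a comparison, and a difference in either factor was not detectable at this depth. A count of 0 allows up to 3 reads, which corresponds to 0.174 to 0.231 CPM (TMM-scaled) in these libraries and covers counting error only.

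Among the surface and secreted antigens, FOLR1 was by far the most abundant. It was covered by 81981, 83611 and 96400 reads in the shNC libraries and by 62998, 56126 and 66490 in the shNUF2 libraries, or 5534 ± 274 CPM against 4471 ± 183 CPM (SD, n = 3 each). The groups did not overlap in CPM, and the ratio of the means was 0.808. FOLR1 fell by 0.31 on the log2 scale (SE 0.04, edgeR's quasi-likelihood test, adjusted p = 2.86e-07), the smallest change of the 7 tested markers. It lies on chromosome 11 from 72189558 to 72196323 (GRCh38, plus strand), where an antisense transcript, AP000812.1, overlaps it.

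MSLN was covered by 5829, 6097 and 6594 reads in the shNC libraries and by 3160, 3020 and 3496 in the shNUF2 libraries. The shNUF2 libraries were nearly equal in scaled level, at 233 ± 1.18 CPM, and lay below the shNC libraries, at 392 ± 16.0 CPM (SD, n = 3 each). MSLN fell by 0.75 on the log2 scale (SE 0.04, edgeR's quasi-likelihood test, adjusted p = 2.34e-14). The gene (chromosome 16 from 760734 to 768865, GRCh38, plus strand) overlaps no other annotated gene in GENCODE release 29.

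MUC16, whose product is the partner of mesothelin, was covered by 718, 713 and 873 reads in the shNC libraries and by 445, 371 and 380 in the shNUF2 libraries. The groups did not overlap, with 48.6 ± 3.47 CPM against 28.9 ± 3.89 CPM (SD, n = 3 each). MUC16 fell by 0.75 on the log2 scale (SE 0.09, edgeR's quasi-likelihood test, adjusted p = 1.9e-08), the same estimate as that of MSLN, though on log2(FPKM + 1) with limma MUC16 was at -0.36 and MSLN at -0.78. The gene model that was counted is 43830 bp long and runs on chromosome 19 from 8848844 to 8981342 (GRCh38, minus strand). The RefSeq starts of MUC16 lie 29067 and 84409 bp beyond the deposited 5′ end, so reads upstream of that end are not in these counts.

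EPCAM lies on chromosome 2 from 47345158 to 47387601 (GRCh38, plus strand) and, like PAX8 and ESR1, had few reads. It was covered by 60, 44 and 55 reads in the shNC libraries and by 91, 66 and 68 in the shNUF2 libraries. The lowest shNUF2 library, at 4.52 CPM, lay just above the highest shNC library, at 4.22 CPM, and the means were 5.45 ± 1.16 and 3.39 ± 0.752 CPM (SD, n = 3 each). EPCAM rose by a log2 fold change of 0.69 (SE 0.22, edgeR's quasi-likelihood test, adjusted p = 0.00834). This call rested on shNUF2 replicate 1, the library with the most EPCAM reads. Without it EPCAM gave a log2 fold change of 0.51 with an adjusted p of 0.078 in the same edgeR test.

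WFDC2 had 0 reads in all 3 shNC libraries and 0, 0 and 1 reads with shNUF2. HE4 transcripts were thus not detected beyond 1 read among 88896337 counts in all, and no difference was detectable at this depth.

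**Figure D3:**
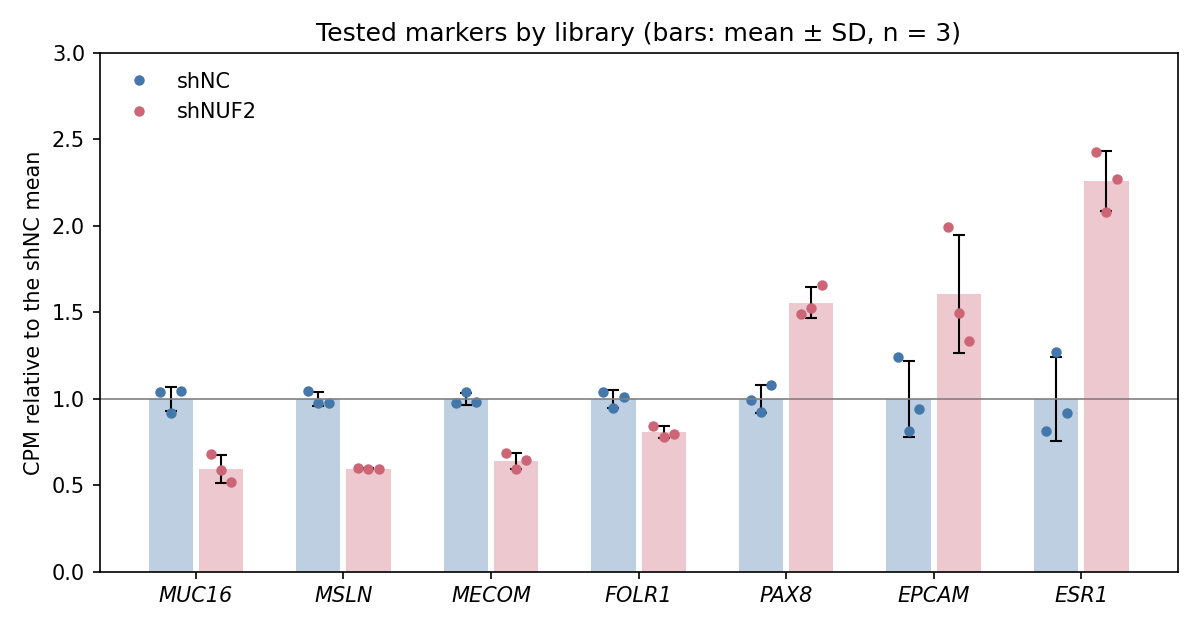
CPM of the 7 tested markers in each library, divided by the shNC mean of the gene (points, 1 per library; bars and whiskers, mean and SD of 3 libraries). MUC16 and MSLN have shNUF2 means of 0.595 of the shNC mean and ESR1 has 2.26, and the points of the groups do not overlap for any of the 7.

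**Figure D4:**
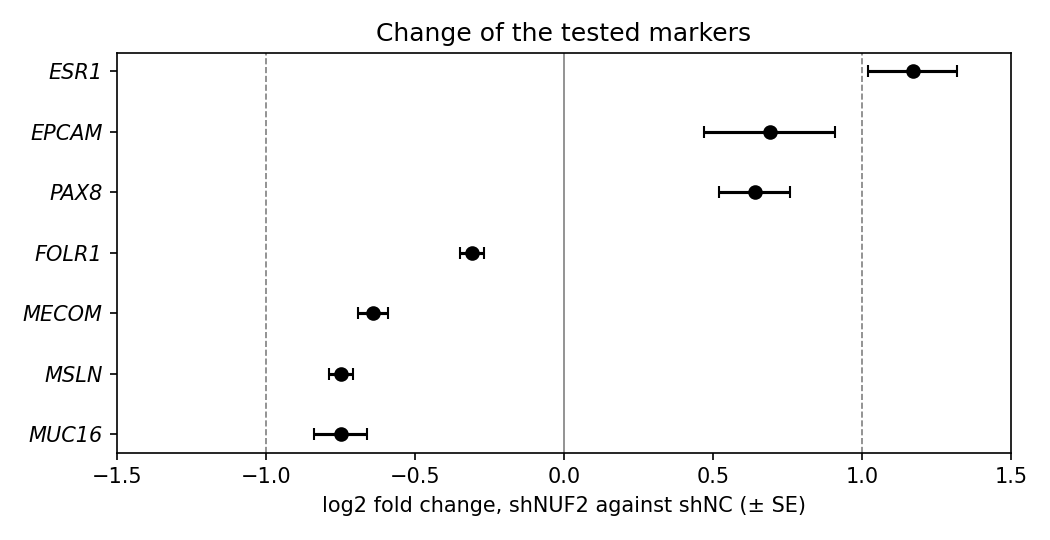
Log2 fold change of the 7 tested markers, shNUF2 against shNC, with its SE from edgeR's quasi-likelihood fit. ESR1, at 1.17, is the only point beyond the dashed lines at 1 and -1, and the 4 lower markers lie between -0.31 and -0.75.

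Genes connected with each member were described by their counts beside the shares of all genes given above, with calls by adjusted p under 0.05 in edgeR's quasi-likelihood test. Of 13 other factors of the Müllerian lineage, 10 were tested. MSX1 and MEIS1 rose, 3 fell, among them HOXA7 and HOXA10, and 5 did not pass. The median log2 fold change of these 10 was -0.03. MSX1, a homeobox factor, went from 65, 85 and 85 reads with shNC to 147, 130 and 166 reads with shNUF2, a log2 fold change of 1.10 (SE 0.16). HOXA7 went from 37, 40 and 42 reads to 17, 11 and 18 reads, a log2 fold change of -1.18 (SE 0.32). FOXA2 and EMX2 had 0 reads in every library.

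ESR1 acts with coregulators on its target genes. Of 13 tested estrogen response genes, 10 rose, 2 fell and 1 did not pass, and the median log2 fold change was 0.49. AREG, which encodes the growth factor amphiregulin, went from 11, 10 and 8 reads with shNC to 86, 99 and 90 reads with shNUF2, a log2 fold change of 3.42 (SE 0.29). TFF1, a secreted trefoil peptide, went from 26, 14 and 45 reads to 129, 132 and 147 reads, a log2 fold change of 2.45 (SE 0.24). NRIP1, a corepressor of the receptor, rose by a log2 fold change of 1.12 (SE 0.13). The 2 genes that fell were CCND1, encoding cyclin D1, by 0.70 on the log2 scale (SE 0.04), and XBP1 by 0.42 (SE 0.05). PGR, encoding the progesterone receptor, had 0 reads in 5 libraries and 5 reads in shNUF2 replicate 3, and CXCL12 and TFF3 had 0 reads in all libraries. Many of these genes also respond to signals other than estrogen. Of 11 tested steroid receptors and coregulators, 2 rose (NCOA3 and NR3C1), 5 fell (among them NCOR1, ESRRA, FOXA1 and NCOA1) and 4 did not pass, with a median of -0.20. The corepressor NCOR1 fell by 0.86 (SE 0.04), and the coactivator NCOA3 rose by 0.22 (SE 0.05), both on the log2 scale.

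Beside FOLR1, 6 genes of folate uptake and retention were tested, of which 1 rose, 3 fell and 2 did not pass, with a median of -0.13. The gene that rose was FOLR3, a secreted folate receptor, which went from 7, 12 and 11 reads to 25, 11 and 18 reads (log2 fold change 1.03, SE 0.42). With the replicate number as a block, FOLR3 was at 1.00 on the log2 scale but no longer passed (edgeR's quasi-likelihood test, adjusted p = 0.0591). SLC19A1 and SLC46A1, the transporters of reduced folate and of folate at acid pH, fell by 0.28 (SE 0.09) and 0.78 (SE 0.18) on the log2 scale.

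Of 12 tested partners and processing enzymes of EPCAM, 5 rose, 2 fell and 5 did not pass, with a median of 0.19. CD44, the hyaluronan receptor, rose from 2671, 2782 and 3210 reads to 7897, 7486 and 8374 reads, a log2 fold change of 1.65 (SE 0.04). FHL2, a LIM protein that takes part in EPCAM signaling, rose by a log2 fold change of 1.64 (SE 0.06). CLDN7, the claudin that binds EPCAM, moved opposite to EPCAM, from 706, 702 and 804 reads to 329, 251 and 355 reads, and fell by 1.06 on the log2 scale (SE 0.09).

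Of 13 other surface and secreted antigens of ovarian carcinoma that could be tested, 6 rose, 2 fell and 5 did not pass, with a median of -0.06. F3, encoding tissue factor, rose from 7415, 6540 and 7119 reads to 20319, 17800 and 21606 reads, a log2 fold change of 1.68 (SE 0.06). CLDN4 rose by a log2 fold change of 1.14 (SE 0.07), in the direction opposite to CLDN7. ERBB2 and CD24 were the 2 that fell. CDH6, SLC34A2 and CLDN3 had 0 reads in every library.

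WT1 itself was near 0, and of 5 tested genes known as its targets or partners 2 rose, 1 fell and 2 did not pass, with a median of 0.46. PODXL, encoding the sialomucin podocalyxin, rose by a log2 fold change of 1.22 (SE 0.04) and SPRY1, an inhibitor of growth factor signaling, by 1.60 (SE 0.27), while WTIP fell by 0.89 (SE 0.14). Of 5 tested paralogs of members, 3 rose, 1 fell and 1 did not pass, with a median of 0.74. WFDC3, a relative of WFDC2, went from 71, 58 and 84 reads with shNC to 259, 274 and 314 reads with shNUF2, a log2 fold change of 2.18 (SE 0.14). WFDC1 went from 6, 3 and 7 reads to 24, 20 and 26 reads (2.29, SE 0.44). MSLNL, a relative of MSLN, fell by 1.51 on the log2 scale (SE 0.22), from 80, 101 and 131 reads to 30, 32 and 33 reads.

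**Figure D5:**
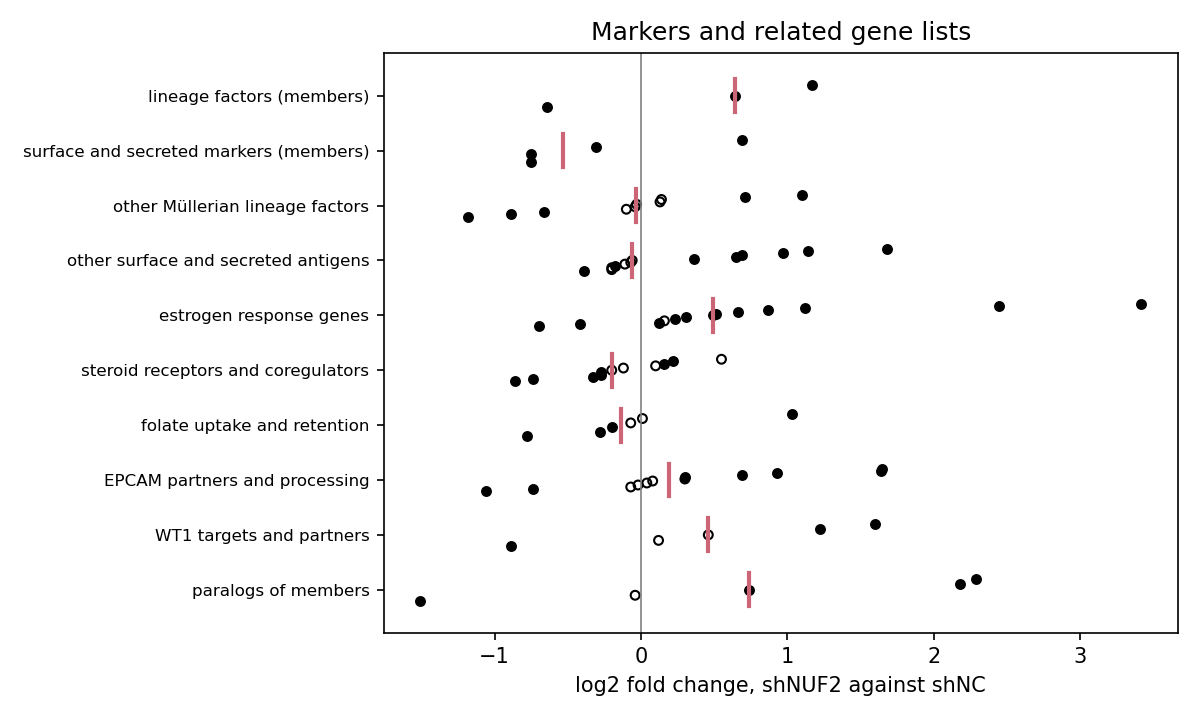
Log2 fold change, shNUF2 against shNC, of the tested members and of the tested genes of 8 connected lists (filled, adjusted p under 0.05 in edgeR's quasi-likelihood test; open, not passing; red bar, median of the list). The estrogen response genes have a median of 0.49 and reach 3.42 at AREG, and the other Müllerian factors have a median of -0.03.

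Markers of other cell types were read over whole lists. The shNUF2 libraries stood apart in the number of genes with at least 1 read, which was 15435 to 15536 against 14582 to 14691 in the shNC libraries, although their median total count was lower (13797326 against 15703556). Of 6 simple epithelium markers, 4 were tested, with KRT8 and KRT18 higher (KRT8 by a log2 fold change of 1.04, SE 0.04) and KRT7 lower (fell by 0.22, SE 0.06). The KRT7 libraries overlapped between the groups, and CDH1 did not pass (-0.72, SE 0.40). The summed level of the 6 markers was 235 to 271 FPKM with shNC and 279 to 307 FPKM with shNUF2. Of 5 mesothelium markers, a tissue that also makes MSLN, MUC16 and WT1, 2 were tested. DES rose (log2 fold change 0.82, SE 0.26), UPK3B did not pass (-0.07, SE 0.13), and PDPN had 0 reads. CALB2, the defining marker calretinin, had 0 reads in every shNC library, against 16, 11 and 9 in those of shNUF2, too few to be tested. The summed level of the mesothelium markers was 5.06 to 6.04 FPKM with shNC and 6.09 to 7.35 FPKM with shNUF2.

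Of 6 ciliated cell markers, 3 were tested and 2 fell, CCDC78 (fell by 0.70, SE 0.17) and RSPH1. The RSPH1 libraries overlapped between the groups (18, 13 and 20 reads against 12, 5 and 4), with a log2 fold change of -1.07 (SE 0.48). With the replicate number as a block, RSPH1 was at -1.12 and no longer passed (edgeR's quasi-likelihood test, adjusted p = 0.0529). FOXJ1, the master factor of cilia, and PIFO had 0 reads, CAPS gave -0.47 (SE 0.42), and the summed level was 2.61 to 2.72 FPKM with shNC and 1.38 to 1.82 FPKM with shNUF2. Of 5 granulosa cell markers, 2 were tested. FOXL2 fell by 1.00 (SE 0.16), from 155, 166 and 185 reads to 79, 79 and 63 reads, AMH did not pass (0.19, SE 0.23), FSHR had 0 reads, and the summed level was 4.91 to 5.26 FPKM with shNC and 2.90 to 3.62 FPKM with shNUF2.

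Of 7 fibroblast markers, 3 were tested. COL1A1 fell by 0.39 (SE 0.06), DCN rose by 1.22 (SE 0.20), PDGFRB did not pass and PDGFRA had 0 reads, with a summed level of 9.44 to 10.1 FPKM with shNC and 7.36 to 8.23 FPKM with shNUF2. Among the leukocyte markers, the defining PTPRC had 0, 1 and 0 reads against 6, 11 and 6 and was not tested. Of 4 endothelium markers, 2 were tested. CDH5 had 1, 1 and 4 reads against 15, 19 and 27 and passed, PECAM1 did not (-0.02, SE 0.30), and the summed level was 0.226 to 0.439 FPKM with shNC and 0.462 to 0.692 FPKM with shNUF2. Of 7 stratified squamous epithelium markers, 2 were tested. KRT14 had 2, 0 and 0 reads against 12, 12 and 20 and passed, TP63 rose by 1.56 (SE 0.38), SPRR1B had 0 reads, and the summed level was 0.0899 to 0.271 FPKM with shNC and 0.744 to 1.10 FPKM with shNUF2. The part of these markers, and of the number of genes detected, in the changes of the members was not tested.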

How the data were processed

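RNA from 6 OVCAR3 libraries (3 shNC, 3 shNUF2) was analysed from the table of all genes. Reads were sequenced on an Illumina NovaSeq from a stranded mRNA kit, and the submitters' processing notes name cutadapt, HISAT, HTSeq and GRCh38.p13. The annotation release and the strand setting are not given in the sources used here. The authors deposited raw read counts per gene and FPKM values, which were rebuilt from count, gene length and library total to a relative deviation of at most 2.71e-07. No 2 libraries held identical values.

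Genes were kept by filterByExpr (12874 of 19973), scaled by TMM and compared by edgeR 4.0.16 (R 4.3.3), shNUF2 against shNC, with the quasi-likelihood test on all 6 libraries and no covariate. The common biological coefficient of variation was 4.93%. P-values were adjusted by Benjamini-Hochberg across the genes tested. The SE was obtained from the log2 fold change and the root of the quasi-likelihood F statistic. CPM are TMM-scaled. The test was tried on simulated counts before use.

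The members and gene lists were chosen with earlier results of these data known. The named genes are all members, NUF2, and from each connected list up to 4 genes per direction with a log2 fold change beyond 1, adjusted p under 0.05 and no overlap, or failing any the 2 with the highest FPKM, and the most abundant gene of each cell type list. Other list genes were named after their values were seen, and some genes of the lists are not reported here. Positions are those deposited, compared with GENCODE release 29 on GRCh38, and 6 of the 10 members have promoters in the RefSeq table. Alternatives were other scalings, filters, DESeq2 1.42.0, limma 3.58.1 on log2(FPKM + 1) and log2(FPKM + 0.1), TREAT, a replicate block and leaving out each library. Other work used Python 3.11.15. The tissue, protein and PCR measurements of the study were not analysed here.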

Additional observations from a re-analysis of the deposited data

How the results depend on the processing

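The fold changes and counts of members were recomputed under other scalings, filters and tests and with libraries left out, and the counts of list genes with library totals only and with the replicate block, which gave 241 values. Of 105 fold changes of members, 104 kept their direction and call and 0 reversed. Of 136 counts, 128 were equal to the reported one and 4 others were within 1.5 times of it. These were the members called higher without shNUF2 replicate 1 (2 in place of 3) and, with library totals only, the estrogen response genes higher (9 in place of 10), the coregulators lower (6 in place of 5) and the other antigens lower (3 in place of 2). The count of members higher with a log2 fold change beyond 1, which is 1 (ESR1), became 0 when edgeR's TREAT test was read at adjusted p (0.446). At the unadjusted TREAT p of 0.0428 for ESR1, from the same edgeR fit, it stays 1. It also became 0 with limma on log2(FPKM + 1), where the added 1 shrinks changes at low FPKM. There ESR1 was at 0.49, PAX8 at 0.38, EPCAM at 0.41 and MUC16 at -0.36, all still passing, while MSLN was at -0.78. With each library left out in turn, EPCAM ranged from 0.51 to 0.86 on the log2 scale, and ESR1 from 1.05 to 1.38. The EPCAM call was lost without shNUF2 replicate 1 (edgeR adjusted p = 0.078), and the cause was not tested. Libraries with the same replicate number did not deviate together (correlations of 0.02, 0.00 and -0.03), so the numbers were not taken as pairs. With the replicate block, the folate genes called higher went from 1 to 0 and the ciliated cell markers called lower from 2 to 1 (RSPH1, edgeR adjusted p = 0.0529), and no other count of a list or call of a member changed by over 1.5 times. Over all genes tested, 1212 were higher and 536 lower with a log2 fold change beyond 1 and unadjusted p under 0.05, against 430 and 206 with limma on log2(FPKM + 1) and 756 and 397 with at least 1 CPM in every library. In the TREAT test 680 and 211 genes passed at adjusted p. The count of higher genes was 1770 with no filter on low counts. The scalings moved the median of all genes to at most -0.05, from -0.01. Depth limits SOX17, WT1 and WFDC2, which had at most 14 reads in any library.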
